A study of Mus musculus with 32 samples.

Results

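The expression of 34 genes of sterol synthesis, lipoprotein uptake and sterol handling was examined in cultured mouse lung endothelial cells (ECs) after silencing of Dnmt1 and cytokine treatment. The genes were taken by symbol from a list of 7 mevalonate pathway enzymes, 11 enzymes that lead from squalene formation to cholesterol, the lipoprotein receptors Vldlr and Lrp8, 5 genes of sterol regulatory element-binding protein (SREBP) control, 5 genes of the liver X receptor (LXR) branch and 4 genes of sterol transport and storage. All 34 were found among the 54429 symbols of the merged count table, each under 1 identifier. All 34 also passed the filter on low counts that left 15254 genes for testing.

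ECs of the Veravec line were transfected with control siRNA (si-control) or with siRNA against Dnmt1 (si-dnmt), the enzyme that copies DNA methylation onto newly made DNA. They were then left without cytokine or were given TNF (TNFα, 10 ng/mL), IFN (IFNγ, 1000 U/mL) or TNF + IFN for 16 h, in a medium with 20% serum. The labels do not state the doses of the combination separately. The paper lists more than 1 siRNA sequence against Dnmt1 and a repeated transfection, and does not say which libraries received which sequence. Each of the 8 groups held 4 libraries that the labels call biological replicates, 32 in all, and RNA was sequenced in bulk. All groups come from 1 cell line, the labels do not say whether the replicates were separate cultures or days, and p-values measure only the spread between these libraries.

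Cells build cholesterol from acetyl-CoA through mevalonate, farnesyl diphosphate, squalene and lanosterol. When membrane sterol runs low, SCAP escorts the SREBP transcription factors to the Golgi, where they are cut and released to switch on the synthesis enzymes and lipoprotein uptake, whereas INSIG proteins hold SCAP in the endoplasmic reticulum when sterol is plentiful. Oxysterols activate the LXR nuclear receptors, which switch on the exporters ABCA1 and ABCG1 and the ubiquitin ligase MYLIP, which removes lipoprotein receptors from the cell. VLDLR takes up triglyceride-rich lipoproteins and shares the ligand reelin with LRP8.

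The promoters of 4 members that fell with Dnmt1 silencing are shown. Hmgcs1, Idi1 and Cyp51 are well-known SREBP targets and Vldlr is the receptor that fell, and Dnmt1 in general keeps methylation at CpG dinucleotides, which these windows hold. RefSeq promoter windows on GRCm38.p6 reach from 250 bases before to 50 bases after each start and were at hand for 28 of the 34 members, in 40 windows. The 200 bases before the start are printed 5′ to 3′ on the gene's strand, with matches to the SRE-type motif TCACNCCAC and to the CCAAT box, each on either strand, in capitals. Hmgcs1 lies on the plus strand at chr13:119690151-119690350, Idi1 on the plus strand at chr13:8885406-8885605 and Cyp51 on the minus strand at chr5:4104698-4104897. Vldlr has a window at chr19:27216284-27216483 and another, nearer the gene body, at chr19:27216820-27217019, both on the plus strand.
Hmgcs1: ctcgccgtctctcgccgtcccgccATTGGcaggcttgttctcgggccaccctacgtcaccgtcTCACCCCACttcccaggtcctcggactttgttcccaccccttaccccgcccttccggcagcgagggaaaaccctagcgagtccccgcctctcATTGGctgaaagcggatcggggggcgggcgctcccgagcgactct
Idi1: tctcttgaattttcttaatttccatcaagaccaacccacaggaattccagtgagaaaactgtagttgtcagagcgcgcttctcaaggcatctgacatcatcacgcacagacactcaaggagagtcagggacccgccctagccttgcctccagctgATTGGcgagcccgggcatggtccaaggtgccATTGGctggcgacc
Cyp51: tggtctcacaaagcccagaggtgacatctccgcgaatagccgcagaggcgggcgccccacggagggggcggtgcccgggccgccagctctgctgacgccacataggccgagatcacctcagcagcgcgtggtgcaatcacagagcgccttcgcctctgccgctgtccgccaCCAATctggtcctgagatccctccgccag
Vldlr, first window: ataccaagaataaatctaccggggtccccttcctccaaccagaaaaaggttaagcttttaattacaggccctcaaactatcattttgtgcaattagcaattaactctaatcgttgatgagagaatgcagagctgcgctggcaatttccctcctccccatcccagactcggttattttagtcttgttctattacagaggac
Vldlr, second window: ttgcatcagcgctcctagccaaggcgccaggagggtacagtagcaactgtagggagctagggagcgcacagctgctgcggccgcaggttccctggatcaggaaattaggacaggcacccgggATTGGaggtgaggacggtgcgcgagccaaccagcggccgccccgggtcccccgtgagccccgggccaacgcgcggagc

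The SRE-type motif, the form of sequence that SREBP binds, occurred in 1 of the 40 member windows, that of Hmgcs1, and in 1.24% of all 32851 windows. The CCAAT box, which the factor NF-Y binds, occurred in 23 of the 40 member windows (57.5%) and in 37.4% of all windows. A GC box (GGGCGG, either strand), the form that SP1 binds, occurred in 28 of the 40 member windows (70%) and in 35.7% of all windows. The whole windows held 26 CpGs in Hmgcs1, 9 in Idi1, 28 in Cyp51, and 8 and 23 in the first and the second window of Vldlr. The median was 20 CpGs over the member windows and 7 over all windows. These matches describe letters in a window and say nothing of binding or of methylation, which was not measured here.

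The libraries held between 17362546 and 33500030 counts each, with a median of 20859668. Dnmt1, the target of the siRNA, stood between 86.5 and 211 CPM (read counts scaled to library size with TMM factors) in the 16 si-control libraries and between 5.11 and 17.3 CPM in the 16 si-dnmt libraries. Its log2 fold change was -3.91 ± 0.19 (SE) as a mean over the 4 cytokine states, -3.13 in replicates 1 and 2 and -4.80 in replicates 3 and 4. Within every group replicates 1 and 2 differed from replicates 3 and 4 over many genes, with a mean chi-square per gene of 3.63 to 41.5 within these pairs and 49.6 to 104 across them. The labels give no batch, so values are also given within each pair. All 10 endothelial markers reached a mean of 1 CPM in every group, whereas Epcam, Cdh1, Krt8, Ptprc, Itgam, Cd3e, Lum, Rgs5 and Cspg4, markers of other cell types, stayed at 0.185 CPM or below in every library. Other genes of the same lists were detected, with Cd68 at 49.1 to 214 CPM, Krt18 at 3.65 to 22.6 CPM, Krt19 at 0.602 to 6.25 CPM and Dcn at 0.449 to 53.9 CPM over the 32 libraries. The summed level of 5 pericyte and smooth muscle markers, carried mostly by Acta2, lay between 7.69 and 26.6 CPM in the untreated si-control libraries and between 39.3 and 183 CPM in the untreated si-dnmt libraries, and its part in the siRNA results was not tested. Mitochondrial genes took 2.73% to 5.77% of the counts in si-control libraries and 2.13% to 4.03% in si-dnmt libraries, with every si-dnmt library below every si-control library of the same state, and the part of this share in the siRNA results was not tested either. In bulk RNA, fewer cells of a type and less RNA per cell cannot be told apart.

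In si-control without cytokine, the members spanned a wide range of levels per kilobase of exon. Npc2, which moves cholesterol out of lysosomes, stood highest at 76.2 ± 8.88 CPM per kilobase (SD, n = 4), followed by the exporter Abca1 at 63.9 ± 32.1, the sterol sensor Insig1 at 54.3 ± 35.1 and the isomerase Idi1 at 39.0 ± 18.4. These neighbours differed by less than the spread of the higher-spread gene. The lowest levels were those of Fdps at 0.903 ± 0.501, Tm7sf2 at 0.956 ± 0.224, the LXRα gene Nr1h3 at 1.00 ± 0.195 and Vldlr at 1.19 ± 0.752 CPM per kilobase. Lrp8 stood at 3.90 ± 0.332 CPM per kilobase, above Vldlr by more than the spread of either. Exon lengths come from GENCODE M21, which may not be the annotation of the count tables. For 5 members, Acat2, Hmgcs1, Idi1, Fdps and Fdft1, over 10% of the 50-base words of their transcripts also occur in other annotated transcripts, and 8 members overlap exons of a gene on the opposite strand, so that their counts are less certain. Fdps and Tm7sf2 also share 1124 of 4208 and 532 of 4403 exon bases with a gene on the same strand. Srebf1 and Nr1h3 share 66 and 34 such bases. The low levels of Fdps and Tm7sf2 are therefore less certain, and the part of this overlap in them was not tested. Vldlr, Abca1 and Stard4 share 0% of the 50-base words with other genes.

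**Figure D1:**
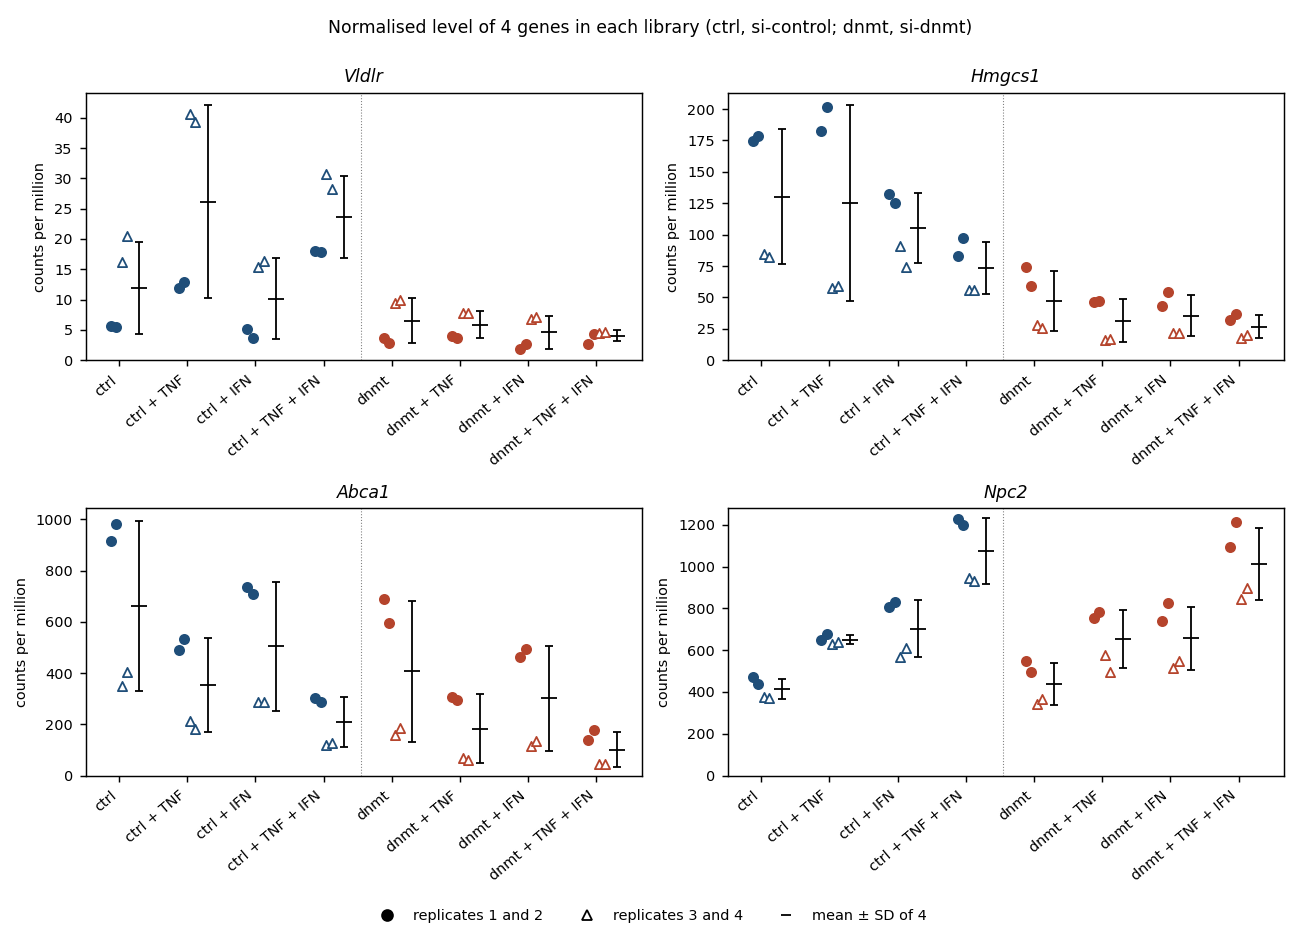
Normalised level of Vldlr, Hmgcs1, Abca1 and Npc2 in each of the 32 libraries, in CPM on an axis from 0, by group, with circles for replicates 1 and 2, triangles for replicates 3 and 4, and the mean ± SD of 4 beside them. Vldlr and Hmgcs1 lay lower in every si-dnmt library than in every si-control library under TNF and under TNF + IFN, and the replicate pairs stood apart in most groups.

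The first question was whether silencing Dnmt1 changes the enzymes that make sterol. As a mean over the 4 cytokine states, 8 of the 18 synthesis enzymes fell and 1 rose with si-dnmt, and their median log2 fold change was -0.46, where the median of all genes tested was -0.0021. Over all 34 members 13 were called lower, where 24.1% of all genes tested were called lower, and 5 were called higher, where 24.4% were. A call means an adjusted p under 0.05 from edgeR's quasi-likelihood method, adjusted after Benjamini and Hochberg over all 15254 genes. Within the replicate pairs, 22 members were called lower in replicates 1 and 2 (24.7% of genes) and 18 in replicates 3 and 4 (29.1% of genes), whereas 4 and 7 were called higher (27.1% and 29.1% of genes). Of the 18 enzymes, 15 lay lower in both pairs and 11 were called lower in both, where 37.0% and 18.1% of all genes were.

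Hmgcs1, which condenses acetyl-CoA units into HMG-CoA at the entry of the mevalonate pathway, fell most among the enzymes. In si-control, Hmgcs1 stood at 174, 179, 85.0 and 82.5 CPM without cytokine, at 183, 202, 57.7 and 58.8 CPM with TNF, at 132, 125, 90.7 and 73.99 CPM with IFN and at 83.1, 97.5, 56.02 and 56.2 CPM with TNF + IFN. In si-dnmt, Hmgcs1 stood at 74.6, 59.1, 27.98 and 25.9 CPM without cytokine, at 46.2, 46.9, 16.5 and 17.1 CPM with TNF, at 43.6, 54.4, 21.8 and 21.8 CPM with IFN and at 32.3, 36.7, 17.9 and 20.1 CPM with TNF + IFN. Values are given in the order of replicates 1 to 4 throughout. In each of the 4 cytokine states every si-dnmt library lay below every si-control library. The fall was 2.78-fold without cytokine (adjusted p = 0.0212), 3.95-fold with TNF (adjusted p = 0.00254), 2.98-fold with IFN (adjusted p = 0.0133) and 2.74-fold with TNF + IFN (adjusted p = 0.0257), and 3.08-fold as a mean (log2 -1.62 ± 0.23, adjusted p = 1.05e-06). Hmgcs1 was the only member called in all 4 states. Within the pairs it fell by 1.56 on the log2 scale in replicates 1 and 2 and by 1.73 in replicates 3 and 4.

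The next mevalonate enzymes moved less. In si-control, Pmvk stood at 13.8, 12.7, 10.3 and 8.79 CPM without cytokine, at 16.1, 17.6, 4.71 and 7.47 CPM with TNF, at 12.2, 15.2, 13.4 and 13.3 CPM with IFN and at 16.3, 16.03, 8.51 and 7.04 CPM with TNF + IFN. In si-dnmt, Pmvk stood at 10.5, 8.34, 5.29 and 5.91 CPM without cytokine, at 10.02, 8.64, 4.47 and 5.45 CPM with TNF, at 9.62, 12.3, 5.198 and 6.55 CPM with IFN and at 6.46, 8.16, 4.57 and 5.58 CPM with TNF + IFN. Pmvk, which adds the second phosphate to mevalonate, fell 1.66-fold as a mean over the states (log2 -0.73 ± 0.17, adjusted p = 9.88e-04). Its si-dnmt and si-control libraries overlapped in all 4 states.

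In si-control, Idi1 stood at 184, 200.4, 81.1 and 81.1 CPM without cytokine, at 263, 269, 64.6 and 59.8 CPM with TNF, at 138, 121, 92.3 and 73.4 CPM with IFN and at 92.8, 102, 55.6 and 62.03 CPM with TNF + IFN. In si-dnmt, Idi1 stood at 148, 128, 57.4 and 59.1 CPM without cytokine, at 109.9, 111, 38.1 and 45.2 CPM with TNF, at 94.7, 117, 48.9 and 48.3 CPM with IFN and at 72.1, 72.5, 32.04 and 33.04 CPM with TNF + IFN. Idi1, which isomerises isopentenyl diphosphate, fell 1.58-fold as a mean (log2 -0.66 ± 0.24, adjusted p = 0.0252). Within each replicate pair the si-dnmt libraries lay below those of si-control in every state, with mean log2 falls of 0.62 in replicates 1 and 2 and 0.67 in replicates 3 and 4. Without 1 library, replicate 1 or 2 of si-control + TNF, its adjusted p was 0.0510 or 0.0516.

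In si-control, Fdft1 stood at 80.5, 82.2, 52.1 and 50.3 CPM without cytokine, at 88.2, 91.99, 36.98 and 39.1 CPM with TNF, at 69.7, 73.5, 54.2 and 50.1 CPM with IFN and at 64.96, 64.9, 39.6 and 40.96 CPM with TNF + IFN. In si-dnmt, Fdft1 stood at 73.1, 55.9, 34.9 and 36.98 CPM without cytokine, at 41.97, 42.5, 25.5 and 23.5 CPM with TNF, at 55.7, 54.7, 32.5 and 36.7 CPM with IFN and at 30.3, 33.3, 22.8 and 25.7 CPM with TNF + IFN. Fdft1, the squalene synthase, fell 1.60-fold as a mean (log2 -0.68 ± 0.15, adjusted p = 3.76e-04). The fall was called with TNF (log2 -0.94 ± 0.30) and with TNF + IFN (log2 -0.91 ± 0.30), and in the latter all si-dnmt libraries lay below all si-control libraries.

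In si-control, Sqle stood at 104, 122, 57.5 and 57.1 CPM without cytokine, at 109, 114, 40.1 and 44.9 CPM with TNF, at 87.1, 96.5, 66.7 and 61.8 CPM with IFN and at 66.2, 56.02, 43.7 and 44.2 CPM with TNF + IFN. In si-dnmt, Sqle stood at 86.3, 68.6, 49.9 and 48.8 CPM without cytokine, at 49.02, 56.4, 29.8 and 32.3 CPM with TNF, at 69.03, 69.3, 44.5 and 47.8 CPM with IFN and at 32.8, 40.3, 25.1 and 24.7 CPM with TNF + IFN. Sqle, the squalene epoxidase, fell 1.55-fold as a mean (log2 -0.63 ± 0.15, adjusted p = 0.00130). Like those of Fdft1, its groups did not overlap with TNF + IFN (log2 -0.78 ± 0.31, adjusted p = 0.0871), and the fall with TNF was called (log2 -0.88 ± 0.31, adjusted p = 0.0445).

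In si-control, Cyp51 stood at 121, 128, 50.4 and 47.99 CPM without cytokine, at 180.3, 181, 40.3 and 44.5 CPM with TNF, at 116, 109, 66.5 and 57.7 CPM with IFN and at 105, 105, 40.4 and 45.2 CPM with TNF + IFN. In si-dnmt, Cyp51 stood at 101, 87.9, 38.1 and 38.5 CPM without cytokine, at 62.8, 79.4, 22.7 and 27.3 CPM with TNF, at 66.4, 91.3, 36.1 and 33.8 CPM with IFN and at 45.9, 59.02, 20.2 and 20.99 CPM with TNF + IFN. Cyp51, the lanosterol demethylase, fell 1.75-fold as a mean (log2 -0.81 ± 0.27, adjusted p = 0.0127). Its siRNA groups overlapped in every state, with replicates 1 and 2 above replicates 3 and 4 throughout, and the fall was -0.81 and -0.75 on the log2 scale within the pairs.

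Hsd17b7, which reduces the 3-keto group of sterol intermediates, went the other way. In si-control, Hsd17b7 stood at 23.8, 21.4, 9.405 and 9.02 CPM without cytokine, at 43.8, 46.2, 21.9 and 20.6 CPM with TNF, at 14.1, 15.03, 10.5 and 9.02 CPM with IFN and at 16.7, 18.01, 16.3 and 14.3 CPM with TNF + IFN. In si-dnmt, Hsd17b7 stood at 30.98, 27.03, 24.7 and 22.2 CPM without cytokine, at 41.2, 43.6, 31.5 and 30.2 CPM with TNF, at 23.1, 22.03, 18.3 and 18.5 CPM with IFN and at 26.6, 25.97, 21.1 and 21.8 CPM with TNF + IFN. It rose 1.46-fold as a mean (log2 0.54 ± 0.13, adjusted p = 0.00119), and its groups did not overlap with IFN and with TNF + IFN. Mvd, which makes isopentenyl diphosphate, and Nsdhl, a sterol dehydrogenase, were also called lower as a mean, at log2 -0.48 ± 0.19 and -0.49 ± 0.18, although the call of Mvd was lost in 17 of the 32 fits that left out 1 library (adjusted p of at most 0.0870). The other 9 enzymes were not called: their mean log2 fold changes ran from -0.49 for Fdps to 0.12 for Tm7sf2, with Msmo1 at -0.45 ± 0.20, Sc5d at -0.42 ± 0.20, Lss at -0.27 ± 0.23 and Ebp at -0.07 ± 0.07. With the replicate block, a second fit in which the replicate number was a term, Mvk, Fdps, Msmo1 and Sc5d were called lower as well.

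The fall of Vldlr, which takes up triglyceride-rich lipoproteins, was followed through all 8 groups. This fall was known from earlier results of these data when Vldlr was singled out. The p-values given for it therefore describe the fall and are no independent test of it. In si-control, Vldlr stood at 5.68, 5.46, 16.2 and 20.4 CPM without cytokine, at 11.9, 12.9, 40.5 and 39.2 CPM with TNF, at 5.21, 3.69, 15.4 and 16.4 CPM with IFN and at 17.97, 17.8, 30.7 and 28.2 CPM with TNF + IFN. In si-dnmt, Vldlr stood at 3.69, 2.91, 9.42 and 9.97 CPM without cytokine, at 4.07, 3.75, 7.79 and 7.81 CPM with TNF, at 1.95, 2.65, 6.81 and 7.096 CPM with IFN and at 2.77, 4.32, 4.51 and 4.69 CPM with TNF + IFN. In si-control, all 4 libraries with TNF + IFN lay above 17 CPM, and in si-dnmt all 16 libraries lay below 10 CPM. With TNF and with TNF + IFN every si-dnmt library lay below every si-control library, whereas without cytokine and with IFN the groups overlapped, with replicates 3 and 4 above replicates 1 and 2 under both siRNAs.

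The fall of Vldlr was 4.46-fold with TNF (log2 -2.16 ± 0.54, adjusted p = 0.00510) and 5.78-fold with TNF + IFN. It was 1.83-fold without cytokine (log2 -0.87 ± 0.53, adjusted p = 0.274, and -0.85, adjusted p = 0.00259, with the replicate block). With IFN it was 2.17-fold (log2 -1.12 ± 0.54, adjusted p = 0.148, and -1.08, adjusted p = 3.75e-04, with the replicate block). Within the pairs, the fall with TNF + IFN was 2.33 on the log2 scale in replicates 1 and 2 and 2.67 in replicates 3 and 4. As a mean over the states it was 3.18-fold (log2 -1.67 ± 0.27, adjusted p = 9.21e-06). Leaving out each library in turn moved this mean between -1.74 and -1.57.

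Lrp8, the reelin receptor of the same family, did not share this pattern. In si-control, Lrp8 stood at 41.3, 45.8, 39.3 and 37.7 CPM without cytokine, at 42.2, 43.8, 66.4 and 69.4 CPM with TNF, at 21.1, 22.8, 31.5 and 29.3 CPM with IFN and at 37.4, 47.6, 41.97 and 44.5 CPM with TNF + IFN. In si-dnmt, Lrp8 stood at 43.5, 40.9, 54.98 and 54.1 CPM without cytokine, at 40.2, 42.1, 55.6 and 69.5 CPM with TNF, at 30.5, 27.96, 40.7 and 37.3 CPM with IFN and at 30.03, 31.1, 43.7 and 42.4 CPM with TNF + IFN. The si-dnmt and si-control libraries overlapped in every state. The log2 fold change was 0.24 ± 0.18 without cytokine, -0.10 ± 0.18 with TNF, 0.38 ± 0.18 with IFN and -0.22 ± 0.18 with TNF + IFN, and 0.08 ± 0.09 as a mean (adjusted p = 0.518). With the replicate block the difference with IFN was called (log2 0.39, adjusted p = 0.0180).

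The exporters of the LXR branch were lower with si-dnmt. In si-control, Abca1 stood at 915, 981, 348 and 404 CPM without cytokine, at 492, 531, 211 and 182 CPM with TNF, at 736, 707, 288 and 287 CPM with IFN and at 302, 288, 121 and 127 CPM with TNF + IFN. In si-dnmt, Abca1 stood at 688, 597, 156 and 186 CPM without cytokine, at 305, 294, 69.7 and 62.4 CPM with TNF, at 462, 496, 114 and 134 CPM with IFN and at 139, 178, 43.3 and 44.1 CPM with TNF + IFN. Abca1, which loads cholesterol onto apolipoprotein A1, fell 1.82-fold as a mean (log2 -0.86 ± 0.31, adjusted p = 0.0245). It stood more than 2-fold higher in replicate 1 than in replicate 3 in every group, and the siRNA groups overlapped, although it fell within each pair, by 0.70 and 1.35 on the log2 scale.

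In si-control, Abcg1 stood at 32.1, 39.97, 21.01 and 25.1 CPM without cytokine, at 44.2, 49.6, 44.9 and 39.4 CPM with TNF, at 44.7, 47.4, 34.5 and 35.4 CPM with IFN and at 70.7, 70.3, 59.2 and 61.97 CPM with TNF + IFN. In si-dnmt, Abcg1 stood at 19.98, 16.98, 9.79 and 12.3 CPM without cytokine, at 27.1, 38.6, 17.8 and 19.9 CPM with TNF, at 32.6, 33.4, 14.9 and 17.9 CPM with IFN and at 43.1, 58.0, 25.3 and 28.7 CPM with TNF + IFN. Abcg1, which passes sterol to mature HDL, fell 1.76-fold as a mean (log2 -0.81 ± 0.14, adjusted p = 1.72e-05). In each of the 4 states all si-dnmt libraries lay below all si-control libraries, and the fall was called without cytokine (log2 -1.002 ± 0.28) and with TNF (log2 -0.78 ± 0.28). The LXR genes themselves, Nr1h2 and Nr1h3, and Mylip were not called as means, with log2 fold changes of -0.10 ± 0.07, 0.10 ± 0.14 and 0.14 ± 0.09, although Mylip was called higher with the replicate block (log2 0.15, adjusted p = 0.0168).

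Genes of sterol transport moved both ways. In si-control, Npc1 stood at 51.99, 65.6, 71.6 and 71.2 CPM without cytokine, at 55.5, 58.6, 105 and 114 CPM with TNF, at 49.9, 58.4, 62.8 and 64.3 CPM with IFN and at 71.2, 74.4, 94.6 and 87.6 CPM with TNF + IFN. In si-dnmt, Npc1 stood at 114, 96.7, 141 and 136 CPM without cytokine, at 86.1, 86.7, 138 and 137 CPM with TNF, at 103, 98.7, 119.5 and 113 CPM with IFN and at 98.3, 96.3, 126 and 116 CPM with TNF + IFN. Npc1, the membrane protein that releases cholesterol from lysosomes, rose 1.58-fold as a mean (log2 0.66 ± 0.10, adjusted p = 2.43e-06). Its si-dnmt libraries lay above all si-control libraries in 3 of the 4 states, with TNF as the exception.

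In si-control, Stard4 stood at 232, 208, 129.7 and 133 CPM without cytokine, at 177, 172, 61.1 and 59.01 CPM with TNF, at 174, 149.5, 140.2 and 116 CPM with IFN and at 107, 112, 60.2 and 59.3 CPM with TNF + IFN. In si-dnmt, Stard4 stood at 154, 129, 65.2 and 68.05 CPM without cytokine, at 97.7, 104, 39.8 and 35.3 CPM with TNF, at 108, 119.6, 59.98 and 56.8 CPM with IFN and at 79.1, 78.8, 37.1 and 36.9 CPM with TNF + IFN. Stard4, a cytosolic sterol carrier, fell 1.63-fold as a mean (log2 -0.71 ± 0.20, adjusted p = 0.00517), by 0.60 in replicates 1 and 2 and by 0.87 in replicates 3 and 4. Soat1, which esterifies cholesterol for storage, rose by 0.12 ± 0.04 on the log2 scale (adjusted p = 0.00721), whereas Npc2 was not called (log2 -0.02 ± 0.09).

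Among the genes of SREBP control, Srebf2, which codes for SREBP2, fell by 0.23 ± 0.08 on the log2 scale (adjusted p = 0.0269, and 0.0517 without replicate 2 of si-control). Scap rose by 0.23 ± 0.06 and Insig2 by 0.21 ± 0.06. Insig1, itself a target of SREBP, stood at 261, 263, 74.7 and 73.2 CPM in untreated si-control and at 233, 177, 59.0 and 66.7 CPM in untreated si-dnmt. Its spread between the pairs was wider than its siRNA difference, and its mean log2 fold change was -0.64 ± 0.31 (adjusted p = 0.0943) and -0.57 with the replicate block (adjusted p = 1.57e-07). Srebf1 was called lower only with the replicate block (log2 -0.13, adjusted p = 0.0153).

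State by state, fewer members passed, and many of these calls were lost when 1 of several libraries was left out. Without cytokine 2 members fell and 2 rose, against 8.88% of genes called lower and 9.58% higher. With TNF 5 fell and 1 rose (9.59% and 10.4% of genes). With IFN 1 fell and 3 rose (9.54% and 10.8% of genes), and with TNF + IFN 3 fell and none rose (8.72% and 8.97% of genes). The replicate block raised the members called from 4 to 13 without cytokine (32.4% of genes called in either direction), from 6 to 20 with TNF (33.4%), from 4 to 17 with IFN (34.5%) and from 3 to 18 with TNF + IFN (30.8%). The share of members called was thus below that of all genes in each state without the block, and above it in all 4 states with the block. Within the pairs with TNF, 15 of the 18 enzymes were called in replicates 1 and 2, all lower (28.6% of genes called). In replicates 3 and 4, 6 were called lower and 2 higher (35.5% of genes called). The median log2 fold change of the enzymes was then -0.96 and -0.16 in the pairs. It was -0.29 and -0.12 without cytokine, -0.27 and -0.39 with IFN and -0.46 and -0.34 with TNF + IFN. Leaving out 1 library ended the call of 3 of the 4 members without cytokine, of 4 of the 6 with TNF, of 3 of the 4 with IFN and of 2 of the 3 with TNF + IFN, with adjusted p of at most 0.129, 0.192, 0.133 and 0.0983, while the log2 fold changes of these members kept their sign in every such fit. The calls that held in each such fit were those of Npc1 without cytokine and with IFN, of Hmgcs1 with TNF, and of Vldlr with TNF and with TNF + IFN. For Hmgcs1 the libraries that ended a call were replicates 1 and 2 of si-control and 3 and 4 of si-dnmt without cytokine and with TNF + IFN, and replicates 3 and 4 of si-dnmt with IFN.

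Without any model, 12, 15, 16 and 18 of the 34 members lay lower in both si-dnmt libraries than in both si-control libraries within each replicate pair, without cytokine, with TNF, with IFN and with TNF + IFN, where 18.9%, 19.6%, 18.7% and 18.1% of genes did. In the same order, 4, 3, 5 and 3 members lay higher within each pair. With all 4 libraries of each group compared at once, 2, 3, 3 and 5 members lay lower and 1, 1, 4 and 2 higher. The shares of all genes for these further counts were not computed.

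**Figure D2:**
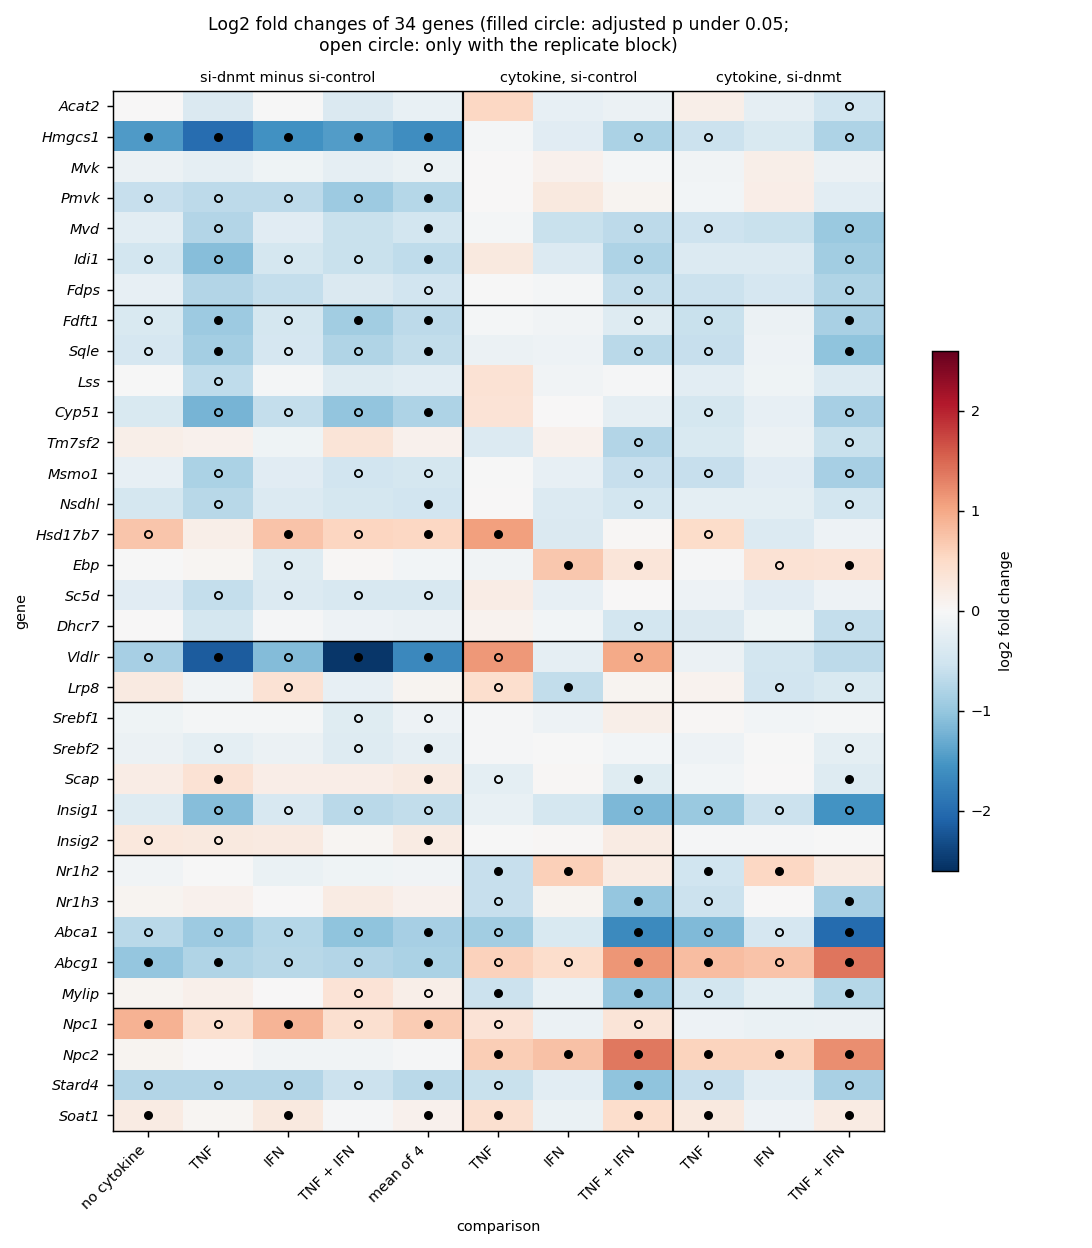
Log2 fold changes of the 34 genes (rows, grouped by class) in 11 comparisons (columns): si-dnmt against si-control in each state and as a mean, and the 3 cytokine treatments against none within either siRNA. Filled circles mark adjusted p under 0.05 and open circles calls made only with the replicate block. Most enzymes and both exporters are blue in the siRNA columns, and Npc2 is red in all 6 cytokine columns.

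The second question was how the cytokines alone act on these genes. In si-control, TNF raised 3 members and lowered 2, against 16.1% and 14.6% of all genes, or 13 in all with the replicate block (43.4% of genes). The block added calls for Vldlr, Lrp8 (log2 0.39, adjusted p = 0.0113), Abcg1 (0.65, adjusted p = 5.47e-04) and Npc1 (0.31, adjusted p = 0.0239) as higher, and for Abca1 (-0.91, adjusted p = 1.24e-05), Stard4 (-0.71, adjusted p = 2.88e-04), Nr1h3 (-0.61, adjusted p = 0.0259) and Scap (-0.26, adjusted p = 0.0469) as lower. IFN raised 3 and lowered 1, against 8.56% and 5.92% of genes, or 5 with the replicate block (25.4%). TNF + IFN raised 4 and lowered 5, against 23.5% and 21.6% of genes, or 22 with the replicate block (55.1%). Only with the block and TNF + IFN was the share of members called above that of all genes. The summed level of the 10 endothelial markers was 5681 to 8526 CPM without cytokine, 3810 to 5567 CPM with TNF and 3511 to 4863 CPM with TNF + IFN in si-control. The 5 fibroblast markers, mostly Dcn, summed to 1.64 to 2.64 CPM without cytokine, 14.8 to 55.9 CPM with TNF and 22.8 to 35.0 CPM with TNF + IFN, and the 5 pericyte and smooth muscle markers to 7.69 to 26.6 CPM without cytokine and 20.9 to 69.4 CPM with IFN. The part of these shifts in the results was not tested.

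Npc2 rose with every cytokine. In si-control, Npc2 stood at 472, 437, 376 and 373 CPM without cytokine, at 650.3, 679, 631 and 639 CPM with TNF, at 807, 831, 567 and 609 CPM with IFN and at 1226, 1197, 946 and 933 CPM with TNF + IFN. In si-dnmt, Npc2 stood at 548, 494, 341 and 369 CPM without cytokine, at 756, 784, 578 and 496 CPM with TNF, at 739, 828, 513 and 549.5 CPM with IFN and at 1092, 1215, 847 and 895 CPM with TNF + IFN. In si-control the rise was 1.57-fold with TNF (log2 0.65 ± 0.18, adjusted p = 0.00576), 1.70-fold with IFN (log2 0.76 ± 0.18, adjusted p = 0.00281) and 2.595-fold with TNF + IFN (log2 1.38 ± 0.18, adjusted p = 3.12e-07). All libraries with a cytokine lay above all libraries without one under si-control.

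In si-control, Ebp stood at 16.5, 20.6, 18.8 and 15.97 CPM without cytokine, at 18.4, 19.3, 13.8 and 16.1 CPM with TNF, at 27.6, 31.3, 32.02 and 26.5 CPM with IFN and at 23.98, 24.8, 19.5 and 21.3 CPM with TNF + IFN. In si-dnmt, Ebp stood at 20.5, 19.3, 15.1 and 16.5 CPM without cytokine, at 18.7, 20.4, 16.1 and 14.4 CPM with TNF, at 24.9, 25.6, 19.3 and 22.5 CPM with IFN and at 23.9, 26.2, 21.0 and 20.5 CPM with TNF + IFN. Ebp, the sterol isomerase, rose 1.63-fold with IFN in si-control (log2 0.71 ± 0.13, adjusted p = 2.21e-04) and 1.25-fold with TNF + IFN (log2 0.32 ± 0.13, adjusted p = 0.0481, a call lost in 6 of 8 fits that left out 1 library, to at most 0.153). Its 4 libraries with IFN lay above all other si-control libraries.

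In si-control, Nr1h2 stood at 51.7, 53.1, 50.4 and 43.9 CPM without cytokine, at 31.3, 32.6, 29.6 and 38.4 CPM with TNF, at 77.9, 92.9, 56.1 and 78.5 CPM with IFN and at 73.1, 64.7, 47.02 and 45.9 CPM with TNF + IFN. In si-dnmt, Nr1h2 stood at 50.4, 51.7, 41.5 and 42.5 CPM without cytokine, at 32.1, 32.5, 32.5 and 33.2 CPM with TNF, at 69.9, 70.8, 62.1 and 66.3 CPM with IFN and at 49.05, 62.3, 50.1 and 52.99 CPM with TNF + IFN. Nr1h2, the LXRβ gene, fell 1.51-fold with TNF (log2 -0.59 ± 0.14, adjusted p = 0.00132) and rose 1.53-fold with IFN (log2 0.62 ± 0.13, adjusted p = 0.00163), with no overlap between the libraries without cytokine and either cytokine. Nr1h3 fell with TNF + IFN by 1.01 ± 0.29 on the log2 scale (adjusted p = 0.00555).

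In si-control, Mylip stood at 20.2, 24.9, 16.1 and 18.9 CPM without cytokine, at 17.1, 14.7, 12.5 and 10.2 CPM with TNF, at 21.97, 19.6, 13.5 and 14.96 CPM with IFN and at 11.5, 10.1, 8.998 and 9.05 CPM with TNF + IFN. In si-dnmt, Mylip stood at 23.2, 21.6, 19.3 and 20.1 CPM without cytokine, at 15.7, 18.4, 13.2 and 12.8 CPM with TNF, at 20.3, 20.9, 15.1 and 14.5 CPM with IFN and at 12.7, 16.6, 9.66 and 11.7 CPM with TNF + IFN. Mylip fell 1.47-fold with TNF (log2 -0.55 ± 0.18, adjusted p = 0.0207) and 2.01-fold with TNF + IFN (log2 -1.01 ± 0.18, adjusted p = 4.99e-05), the latter without overlap. Leaving out 1 library (replicate 2 of si-control, or replicate 3 or 4 of si-control + TNF) ended the call of its fall with TNF, at an adjusted p of at most 0.0911.

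The 2 exporters moved in opposite directions with TNF + IFN in si-control. Abcg1 rose 2.22-fold (log2 1.15 ± 0.28, adjusted p = 0.00114), and all its libraries with TNF + IFN lay above all those without cytokine. Abca1 fell 3.16-fold (log2 -1.66 ± 0.64, adjusted p = 0.0350), by 1.69 in replicates 1 and 2 and by 1.60 in replicates 3 and 4. Stard4 fell 2.07-fold (log2 -1.05 ± 0.41, adjusted p = 0.0367). The falls of Abca1 and Stard4 lost their call, to adjusted p of at most 0.0974 and 0.105, without replicate 1 or 2 of si-control or replicate 3 or 4 of si-control + TNF + IFN.

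Hsd17b7 rose 2.08-fold with TNF (log2 1.06 ± 0.26, adjusted p = 0.00291), and Soat1 rose by 0.41 ± 0.07 with TNF and by 0.46 ± 0.07 with TNF + IFN on the log2 scale. Scap fell by 0.32 ± 0.11 with TNF + IFN, a call lost without replicate 3 of si-control or replicate 2 or 3 of si-control + TNF + IFN (adjusted p of at most 0.0790). Lrp8 fell 1.57-fold with IFN (log2 -0.65 ± 0.19, adjusted p = 0.0161), where all 4 libraries lay below all 4 without cytokine. Its adjusted p was at most 0.0690 without replicate 2 of si-control or replicate 1 or 2 of si-control + IFN. Of the 18 enzymes, none was called lower by TNF + IFN in the first fit, against 21.6% of all genes, whereas 10 were with the replicate block, against 27.0%, among them Hmgcs1 (log2 -0.76) and Idi1 (log2 -0.71).

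For Vldlr, TNF and TNF + IFN gave 2.18-fold and 1.97-fold higher levels in si-control (log2 1.13 ± 0.52, adjusted p = 0.103, and 0.98 ± 0.52, adjusted p = 0.129). With the replicate block both were called (log2 1.12, adjusted p = 4.07e-05, and 1.17, adjusted p = 1.52e-05), and within the pairs the rise with TNF was 1.16 and 1.12 on the log2 scale. The pairs were less alike with TNF + IFN. There the mean of Vldlr rose from 5.57 to 17.9 CPM in replicates 1 and 2, and from 18.3 to 29.4 CPM in replicates 3 and 4. In si-dnmt the same contrasts gave -0.16 ± 0.53 (adjusted p = 0.881) and -0.68 ± 0.55 (adjusted p = 0.352), or -0.07 and -0.54 with the block (adjusted p = 0.841 and 0.0539). The difference between the siRNAs was tested as an interaction. It was -1.29 ± 0.74 for TNF (adjusted p = 0.847) and -1.66 ± 0.76 for TNF + IFN (adjusted p = 0.506), and with the replicate block -1.20 (adjusted p = 0.0467) and -1.71 (adjusted p = 0.00128).

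Across the members, edgeR called 0 interactions of the siRNA with TNF, IFN or TNF + IFN (0.0328%, 0.0459% and 0.531% of genes), and DESeq2 also called 0. At an unadjusted p under 0.05 there were 0, 0 and 2 members. With the replicate block 1, 0 and 1 members were called (0.892%, 0.387% and 4.18% of genes), the called member being Vldlr. Within the replicate pairs more were called, all with a log2 difference below 0. For TNF there were 12 in replicates 1 and 2 (1.93% of genes called lower), Vldlr, Insig1 and 10 synthesis enzymes, and 4 in replicates 3 and 4 (4.66%). For IFN there were 0 in either pair (1.59% and 0.616%), and for TNF + IFN 4 in replicates 1 and 2 (3.99%) and 7 in replicates 3 and 4 (6.51%). Vldlr was called in both pairs for TNF and for TNF + IFN.

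The cytokine contrasts within si-dnmt called 4 members with TNF (21.0% of genes), 2 with IFN (9.01%) and 10 with TNF + IFN (40.2%), and with the replicate block 16 (34.3%), 7 (19.0%) and 24 (51.7%). Npc2 was called higher in all 3 contrasts, by 0.58 ± 0.18, 0.59 ± 0.18 and 1.21 ± 0.18 on the log2 scale. With TNF + IFN, Abca1 fell 4.02-fold (log2 -2.01 ± 0.65, adjusted p = 0.0141), Sqle fell 2.06-fold (log2 -1.04 ± 0.31, adjusted p = 0.00851) and Fdft1 fell 1.79-fold (log2 -0.84 ± 0.30, adjusted p = 0.0249). Abcg1 rose 2.63-fold (log2 1.395 ± 0.28, adjusted p = 1.97e-04). Of the 10 calls with TNF + IFN, those of Sqle, Abcg1, Mylip and Npc2 held whichever library was left out, and the other 6, among them Abca1 and Fdft1, were lost in 2 to 4 of 8 such fits (adjusted p of at most 0.129). With TNF and with IFN, the calls of Npc2 were lost without replicate 3 or 4 of si-dnmt or replicate 1 or 2 of the treated group (adjusted p of at most 0.163). Whether these effects differed from those in si-control was tested by the interactions given above.

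The third question was how far the replicate pairs differ. This comparison and that of the TNF effect between the pairs were added after the data were seen. Averaged over the 8 groups, all 18 synthesis enzymes stood lower in replicates 3 and 4 than in replicates 1 and 2, with log2 differences from -0.24 for Ebp to -1.66 for Fdps. Over all members 28 were called lower and 5 higher, against 33.8% and 31.0% of genes. Insig1 (log2 -1.66 ± 0.04), Abca1 (-1.65 ± 0.04) and Cyp51 (-1.36 ± 0.05) were among the lowest, and Vldlr (1.31 ± 0.06), Npc1 (0.42 ± 0.03) and Lrp8 (0.36 ± 0.04) were higher. Vldlr thus went opposite to the synthesis enzymes between the pairs, but with them after Dnmt1 silencing. The summed endothelial markers also differed, with means of 7799 and 5767 CPM in the 2 pairs of untreated si-control, and their part in this difference was not tested.

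**Figure D3:**
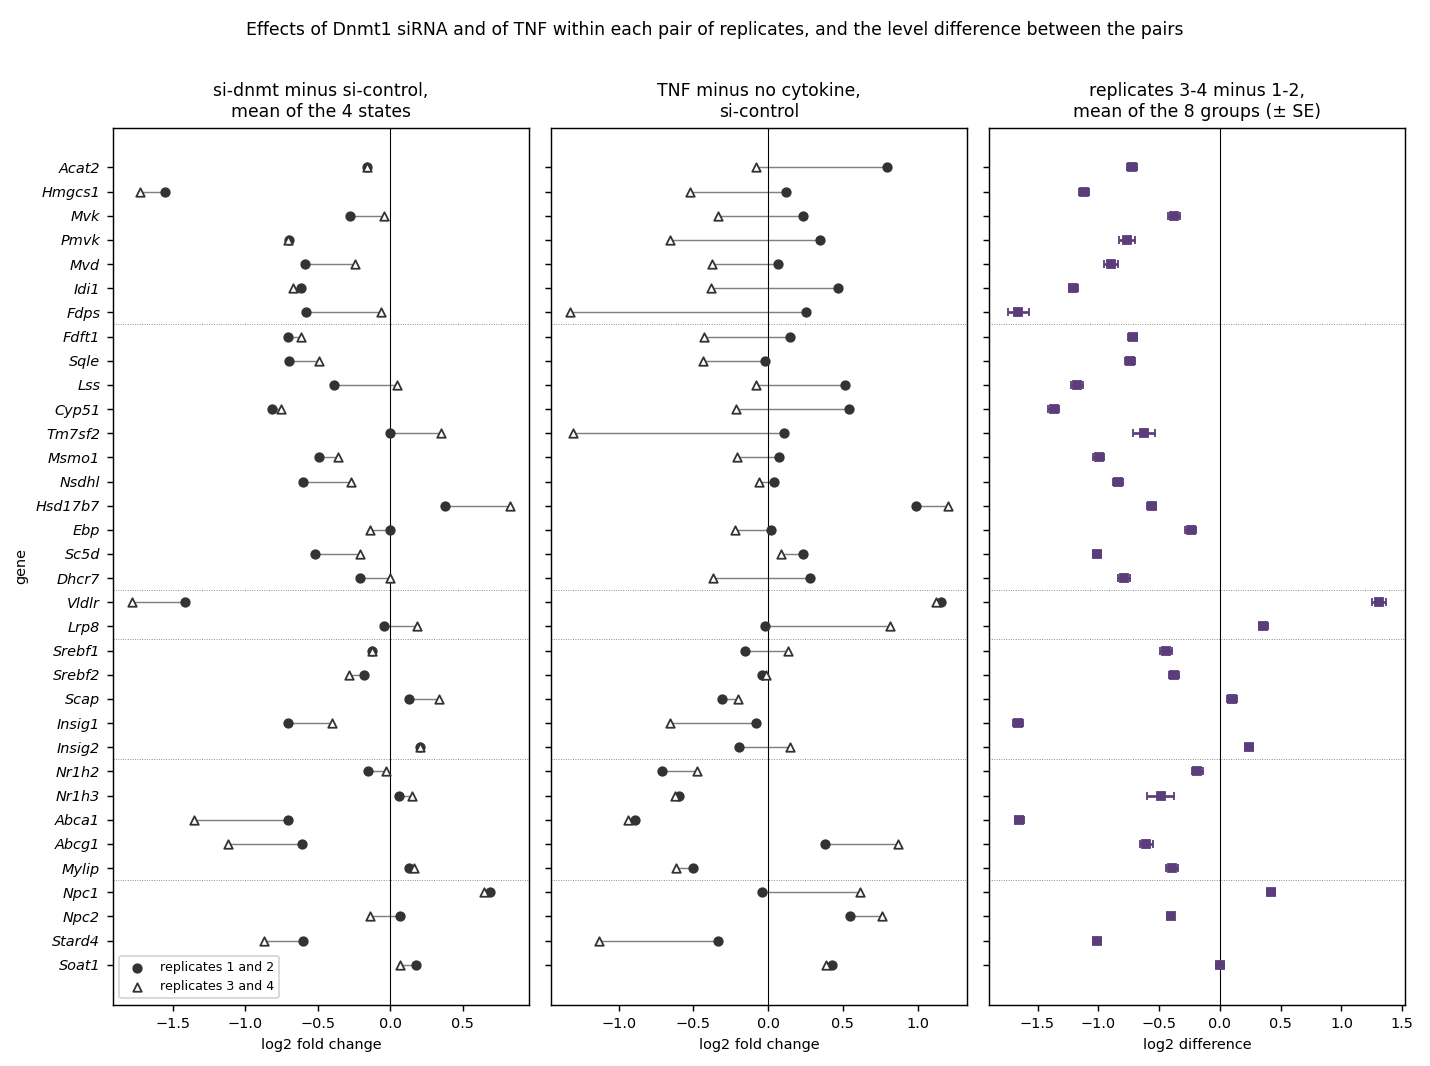
Log2 fold changes of the 34 genes within replicates 1 and 2 (circles) and replicates 3 and 4 (triangles) for Dnmt1 silencing (left) and for TNF in si-control (middle), and the level difference between the pairs averaged over the 8 groups, ± SE (right). The siRNA effects of the pairs, as means over the 4 states, lie on the same side of 0 for 30 of 34 genes. Those of TNF in si-control lie on opposite sides for 19.

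The effect of TNF in si-control had opposite signs in the pairs for 19 members, and the siRNA effect averaged over the 4 states for 4. The siRNA effect in single states agreed less well. It had opposite signs in the pairs for 9 members without cytokine, 11 with TNF, 6 with IFN and 4 with TNF + IFN. Of the 11 with TNF, 7 were synthesis enzymes. In replicates 1 and 2, TNF raised 6 of the 18 enzymes and lowered none, and in replicates 3 and 4 it raised 1 and lowered 8. Over all members 10 rose and 5 fell in replicates 1 and 2 (20.3% and 19.0% of genes), and 7 rose and 13 fell in replicates 3 and 4 (22.2% and 21.3% of genes). In 15 of the 18 enzymes the effect was above 0 in the first pair and below 0 in the second. The difference itself was called lower in replicates 3 and 4 for 13 members and higher for 2 (8.66% and 7.47% of genes). Opposite signs in the pairs were not limited to TNF. In si-control they occurred in 11 of the 18 enzymes with IFN and in 7 with TNF + IFN.

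Idi1, for example, rose by 0.47 on the log2 scale with TNF in replicates 1 and 2 (adjusted p = 3.84e-04) and fell by 0.38 in replicates 3 and 4 (adjusted p = 0.00371), a difference of -0.85 ± 0.15 (adjusted p = 1.21e-04). Acat2, which makes acetoacetyl-CoA, differed by -0.87 ± 0.16, Cyp51 by -0.75 ± 0.17 and Stard4 by -0.79 ± 0.13. Lrp8 (0.84 ± 0.14) and Npc1 (0.66 ± 0.13) differed the other way, having risen with TNF in replicates 3 and 4 alone. In si-dnmt, by contrast, TNF gave log2 fold changes of the same sign in both pairs for 29 of the 34 members. These opposite signs leave the mean effect of TNF on the enzymes in si-control near 0, with a median log2 fold change of 0.01.

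Related genes outside the 34 were taken from 5 lists, whose counts stand against the 24.4% of all genes called higher and the 24.1% called lower for the mean siRNA effect. Of 19 genes of fatty acid synthesis, all tested, 8 fell and 2 rose with si-dnmt as a mean over the states, led by the stearoyl-CoA desaturases Scd2 (log2 -1.43 ± 0.27) and Scd1 (log2 -1.32 ± 0.13). Without cytokine, Scd2 averaged 1075 CPM in si-control and 531 in si-dnmt, and with TNF + IFN 599 and 170 CPM. Of 11 genes of SREBP processing and regulated degradation, 7 rose and 2 fell, with the site-2 protease Mbtps2, which makes the second cut of SREBP, at -1.21 ± 0.09 and Erlin2 at 0.63 ± 0.05. Without cytokine, Mbtps2 averaged 44.96 CPM in si-control and 18.7 in si-dnmt.

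Of 25 other lipoprotein receptor and ligand genes, 21 were tested, 8 rose and 4 fell. Reln, which codes for the reelin ligand of Vldlr and Lrp8, rose by 2.42 ± 0.31 on the log2 scale from a mean of 0.661 to 3.84 CPM without cytokine, and Olr1, a receptor for oxidised LDL, by 1.35 ± 0.51 (adjusted p = 0.0295). Olr1 also stood low, at a mean of 0.782 CPM in untreated si-control. Of 16 genes of oxysterol and intracellular sterol handling, 13 were tested, 5 rose and 2 fell, with Gramd1c at 0.99 ± 0.17 and Cyp27a1 at 0.76 ± 0.26. Of 6 other LXR targets, 5 were tested and 1 rose, Smpdl3a at 0.80 ± 0.09.

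With TNF + IFN in si-control, the related genes that moved most were Soat2, which esterifies sterol, at 4.64 ± 0.55 and Ch25h, which makes 25-hydroxycholesterol, at 4.01 ± 0.21 on the log2 scale. Soat2 started from a low mean of 0.183 CPM and reached 4.78 CPM. Its log2 rise was 5.85 in replicates 1 and 2 and 3.66 in replicates 3 and 4. Ch25h rose from a mean of 15.3 CPM to 137 CPM with TNF and 247 CPM with TNF + IFN. The fatty acid genes Acsl1 and Elovl6 changed by 2.72 ± 0.16 and -1.69 ± 0.36, and Erlin1 and Rnf145 by 1.24 ± 0.12 and -0.91 ± 0.23. Arl4c rose by 1.31 ± 0.13 and Smpdl3a fell by 1.16 ± 0.18, both being LXR targets. The lipase Lpl (-3.60 ± 1.00) and the scavenger receptor Stab2 (-3.11 ± 0.78) fell, Lpl from a mean of 1.35 CPM, and its fall was 0.53 in replicates 1 and 2 and 3.90 in replicates 3 and 4.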

How the data were processed

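Bulk RNA was sequenced from 32 libraries, 4 labelled biological replicates in each of 8 groups of siRNA and cytokine, taken from the sample labels. The authors made whole-number read counts per gene with featureCounts after trimming with cutadapt 4.9 and checks with FastQC 0.12.1 and MultiQC 1.27.1, per the labels, and deposited them without normalisation. Aligner, genome build, annotation and strand setting: not given in the sources used here. The merged table and the single-library tables held the same counts, and 0 rows lacked a gene name.

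The 34 genes were matched by symbol. The members and the related and marker gene lists were chosen with earlier results of these data known. Counts were normalised with TMM (factors 0.880 to 1.091) and filtered with filterByExpr (minimum count 10, 15254 genes kept). Groups were compared in R 4.3.3 with the quasi-likelihood F test of edgeR 4.0.16 on 8 group means over all 32 libraries, with Benjamini-Hochberg adjustment over all genes kept and a threshold of 0.05. This design was tested on simulated data that held an siRNA effect but no difference between the replicate pairs. That test therefore does not cover how the design handles such a difference. Alternatives were DESeq2 1.42.0, RLE factors, no filter, the effect within each replicate pair (from 16 means over all 32 libraries), each library left out, and the replicate number as a block.

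Replicate numbers were compared as deviations of log2 CPM (prior count 2) from the group means. Libraries with the same number in different groups correlated at 0.297 to 0.617 over 112 pairs, and since each of these exceeded 0.1 the numbers were taken to pair the libraries. Other numbers of the same replicate pair correlated about as highly, at 0.209 to 0.564 (median 0.409 against 0.415). These correlations therefore cannot tell pairing by number from the difference between the replicate pairs. Libraries from the other pair of replicates correlated at -0.590 to -0.239. Comparisons of replicates 3 and 4 with 1 and 2 used 16 means.

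Values in each library were given for Vldlr, Lrp8, members called for the mean siRNA effect at an absolute log2 fold change of 0.5 or more, and the 2 highest and 2 lowest called members of each cytokine comparison in si-control. At most 2 related genes per list were named for the siRNA mean and for TNF + IFN. Levels per kilobase used GENCODE M21 exon lengths, and promoters the RefSeq windows on GRCm38.p6.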

Additional observations from a re-analysis of the deposited data

Results flagged for a closer look

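The mean siRNA effect differed between replicates 3 and 4 and replicates 1 and 2 in 13 of the 34 genes (24.1% of all genes tested), by edgeR's test of that difference with adjustment over all genes. Values are the log2 fold change in replicates 3 and 4 minus that in replicates 1 and 2. Fdps (0.516), Hsd17b7 (0.45), Lss (0.43), Mvd (0.35), Nsdhl (0.33), Sc5d (0.31), Insig1 (0.30) and Lrp8 (0.23) were higher in replicates 3 and 4. For Fdps, Mvd, Nsdhl, Sc5d and Insig1 the effect was below 0 in both pairs and smaller in replicates 3 and 4, whereas Lss went from -0.39 to 0.05 and Hsd17b7 from 0.38 to 0.82. Abca1 (-0.65), Abcg1 (-0.51), Vldlr (-0.36), Stard4 (-0.27) and Npc2 (-0.21) were lower, and the first 4 of these fell further in replicates 3 and 4. Dnmt1 itself was lower in replicates 3 and 4, by -1.67 ± 0.08 on the same scale, and its part in these differences was not tested. In 0 of the 136 groups of 4 values examined did 1 library pass Dixon's criterion, which chance passes in about 1 group in 20. Where the replicate pairs stand apart, 1 library can hardly pass it, so this says nothing of how stable the values are.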

How the results depend on the processing

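With the replicate block, within replicates 1 and 2, and within replicates 3 and 4 (both from the design with 16 means over all 32 libraries), in that order, the number of members called rose for the siRNA effect from 4 to 13, 16 and 13 without cytokine, from 6 to 20, 23 and 17 with TNF, from 4 to 17, 17 and 20 with IFN, and from 3 to 18, 22 and 19 with TNF + IFN (5 with DESeq2). In si-control it rose from 5 to 13, 15 and 20 with TNF, from 4 to 5, 16 and 7 with IFN, and from 9 to 22, 23 and 21 with TNF + IFN, and in si-dnmt from 4 to 16, 19 and 17, from 2 to 7, 15 and 9, and from 10 to 24, 25 and 18. The interactions rose from 0 to 1, 12 and 4 for TNF and from 0 to 1, 4 and 7 for TNF + IFN. Within the pairs, 25.8% to 37.7% of all genes were called for the siRNA in single states, 21.5% to 51.1% for the cytokines in si-control, 15.5% to 49.0% in si-dnmt, and 1.93% to 6.51% were called lower for these 2 interactions. The fall of Vldlr passed the threshold in these 3 fits without cytokine (log2 -0.85, -0.76 and -0.92) and with IFN (-1.08, -0.93 and -1.19). The block treats the libraries of a number as paired, and the design with 16 means leaves out the spread between pairs, which the first design counts as error.

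Leaving out 1 library gave 1 to 4 members called for the siRNA without cytokine, 2 to 8 with TNF, 2 to 5 with IFN and 1 to 4 with TNF + IFN, and 2 to 4 with TNF and 1 to 4 with IFN in si-dnmt. The mean siRNA effect kept 16 to 21 members called. With DESeq2, RLE factors or no filter, all other counts of members moved by at most 1.5 times, and no named value changed sign. With 4 libraries a group, the SE of Vldlr in a single state was 0.53 to 0.56 on the log2 scale without the block, which limits the calls in single states.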
